A study of Rattus norvegicus with 12 samples.

Results

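The genes described here are 10 rat liver genes whose expression is set by the pattern of growth hormone secretion: Obp3, Mup5, Stac3, Sult1e1, Cyp2c11, Cyp2c13, Cyp3a18, Cyp2c7, Cyp3a9 and Cux2. Every probe set that the platform's annotation assigns to exactly 1 of these symbols was taken, which gave 14 probe sets of 31042 tested. All 10 genes had a probe set, and 0 probe sets were left out for naming a member together with another gene. The platform's table names 14217 genes in all. A gene with several probe sets is represented by its brightest on average.

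RNA was measured on 12 single-colour Affymetrix arrays, 3 for each of 4 groups of adult male Sprague-Dawley rats. Control rats were injected with distilled water. The other groups were given diethylnitrosamine (DEN), a liver carcinogen activated in hepatocytes, in weekly intraperitoneal doses of 70 mg/kg over 10 weeks. The hepatitis group was killed at week 5, the cirrhosis group at weeks 13 to 14 and the hepatocellular carcinoma (HCC) group at weeks 23 to 24 after DEN treatment. For controls that week is not given in the labels, which also leave unstated whether weeks run from the first or the last injection. The tissue label is liver for all 12 samples, while the series' design text calls the last group HCC tissue. The labels do not tie arrays to individual rats, and the p-values cover the spread among these samples, which may be technical. Stage, age at death and time since DEN cannot be told apart in this design. Nor can the number of doses received by death, if weeks run from the first injection.

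In rats the pituitary releases growth hormone in regular pulses in males and nearly continuously in females. The pulses activate the transcription factor STAT5b in hepatocytes, and the difference in pattern keeps one set of liver genes high in males and another high in females. The male set includes urinary lipocalins and steroid-hydroxylating P450 enzymes, and the female set includes other P450 enzymes and the repressor Cux2. Androgens and age also act on many of these genes.

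The male label was borne out on all 12 arrays by the bright Y-linked probe sets, with 124 to 349 for Eif2s3y and 124 to 217 for the brighter of Uty. The dimmer probe set of Uty had 10.94 to 15.57 over the arrays, and that of Sry, also Y-linked, had 5.8 to 7.71. These dim values add nothing on sex. The 4 probe sets of Xist, which is expressed from the inactive X chromosome of females, had at most 9.23. The control arrays did not show the textbook adult male pattern in full. Cyp2c12, known as female-specific, had 5159, 4204 and 4328 in control, and the male urinary lipocalin Obp3 had at most 12.6 there. Whether the Cyp2c12 probe set also reads other Cyp2c transcripts was not tested. Other male-biased genes were bright in control, with Cyp2c11 at 1861 to 3551 and means of 6009 for Cyp2c13 and 5997 for Cyp3a2. Female-biased genes were mixed there, with means of 11.1 for A1bg, 16.8 for Cyp3a9 and 13.6 for Cux2, but 702 for Cyp2a1 and 1984 for Sult2a6. The terms male-biased and female-biased below therefore refer to what is known of each gene and not to a pattern shown by these arrays.

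Among arrays, HCC replicates 1 and 3 lay farthest from the rest, at 86.82 and 96.13 on the first principal component (58.6% of the variance), with HCC replicate 2 at 45.07 and the other 9 arrays between -29.51 and -12.03. The mean log2 level of 8 hepatocyte marker genes was 13.09 to 13.19 on the 9 arrays of the control, hepatitis and cirrhosis groups, and 12.46, 13.14 and 12.17 on HCC replicates 1, 2 and 3. A measure of RNA quality, the log2 excess of the 3' over the 5' probe set of Gapdh, was 1.35, 2.43 and 3.14 on those HCC arrays and 0.38 to 1.02 on the others. In these bulk samples fewer hepatocytes and less RNA per hepatocyte cannot be told apart. Values below are intensities, in the arbitrary linear unit of the deposited table, with SD and n = 3. Differences are on the scale log2(value + 16), with their standard error from limma, and a probe set was called where its p, adjusted by Benjamini-Hochberg across all 31042, was under 0.05.

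**Figure D1:**
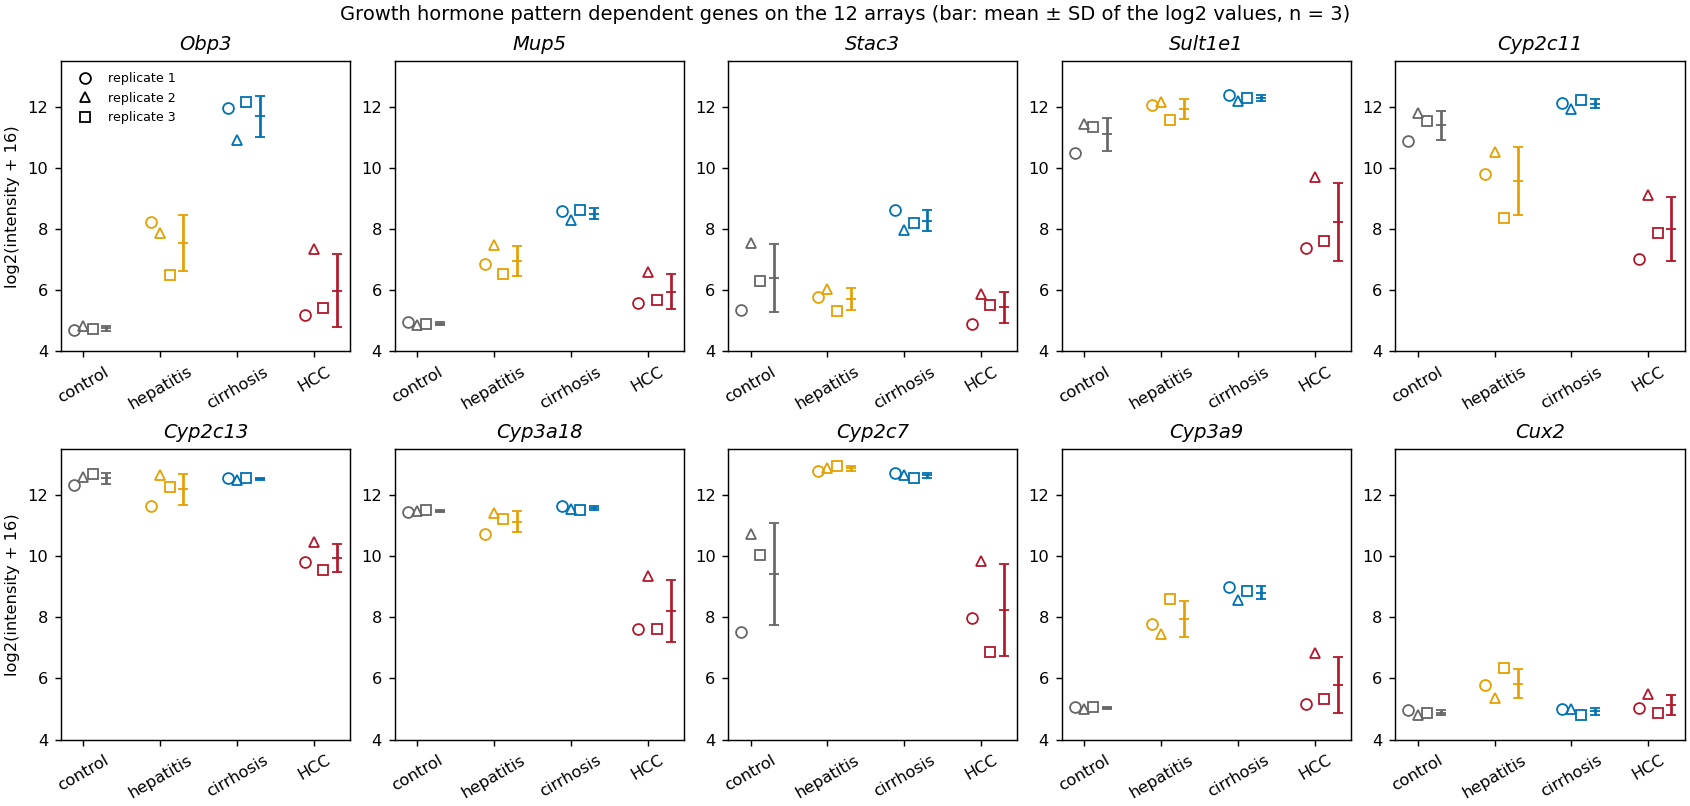
Log2(intensity + 16) of the 10 genes in control, hepatitis, cirrhosis and HCC, with 1 symbol per array and the mean ± SD of the log2 values of 3 arrays beside it. Obp3 and Mup5 are lowest in control and highest in cirrhosis, Cyp2c7 is highest in hepatitis and cirrhosis, and the bright genes Sult1e1, Cyp2c11, Cyp2c13 and Cyp3a18 are lowest in HCC.

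Obp3 and Mup5 encode lipocalins of the alpha-2u-globulin family, small carrier proteins that the liver of male rats secretes for excretion in urine. Both were near the bottom of the scale in control liver and stood highest in cirrhosis. Their promoters are shown because their signals, which may be shared, moved together and because the copies are nearly identical. RefSeq's windows from 250 bases before to 50 after the gene start, in the GRCr8 build, are given 5′ to 3′ on the minus strand of chromosome 5 that carries both genes, Obp3 at chr5:79640626-79640925 and Mup5 at chr5:79999646-79999945. Capitals mark ATCAAT, a core recognised by factors of the Onecut and Cux families.
Obp3: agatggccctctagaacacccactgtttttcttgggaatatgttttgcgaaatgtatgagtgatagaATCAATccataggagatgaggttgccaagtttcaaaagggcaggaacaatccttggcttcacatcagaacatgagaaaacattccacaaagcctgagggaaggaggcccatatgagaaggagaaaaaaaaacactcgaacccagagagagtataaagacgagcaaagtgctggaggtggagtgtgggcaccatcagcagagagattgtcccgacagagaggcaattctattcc
Mup5: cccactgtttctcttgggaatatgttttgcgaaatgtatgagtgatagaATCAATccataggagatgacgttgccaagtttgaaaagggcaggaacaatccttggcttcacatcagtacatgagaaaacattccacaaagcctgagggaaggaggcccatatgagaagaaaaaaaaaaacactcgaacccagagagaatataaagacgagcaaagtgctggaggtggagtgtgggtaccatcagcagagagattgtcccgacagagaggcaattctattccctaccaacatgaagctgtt
Over 282 aligned positions the windows were identical at 274 (97.2%), with 7 mismatches and 1 gap. ATCAAT, searched on both strands, begins 183 bases before the start of Obp3 and 201 before that of Mup5. It was found in 4 of the 10 members' windows (Obp3, Mup5, Cyp2c7 and Cyp2c13), against 8.06% of 33469 windows of all genes. Obp3 and Mup5 are near copies and Cyp2c7 and Cyp2c13 are of the same family. These windows are therefore not independent, and the count cannot be read as enrichment. The STAT consensus TTCNNNGAA, which reads the same on both strands, was found in 0 of the 10, against 8.87% of all windows. Such a match describes letters in a short window of the reference genome and says nothing of whether a factor binds there.

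Obp3 had intensities of 9.92, 12.55 and 10.58 in control, 288, 217 and 75.4 in hepatitis, 4003, 1917 and 4611 in cirrhosis, and 20.8, 148 and 26.8 in HCC. No control array overlapped any DEN array, and the cirrhosis arrays lay above all the others. The cirrhosis mean was 3510 ± 1413, against 11.02 ± 1.37 in control, a rise of 6.93 ± 0.61 (adjusted p = 0.00122 in limma) or 122-fold on the value + 16 scale. The control level lay at the 23.3 percentile of all probe sets, so the fold depends on the added 16. In hepatitis Obp3 rose by 2.79 ± 0.61, at an adjusted p = 0.0441 in limma that did not hold in every setting: leaving out any control or cirrhosis array, or hepatitis replicate 1 or 2, gave 0.0583 to 0.171. From hepatitis to cirrhosis the difference was 4.15 ± 0.61 (adjusted p = 0.0208). That call ended, with an adjusted p = 0.0623 to 0.103, without hepatitis replicate 3, cirrhosis replicate 1 or cirrhosis replicate 3. In HCC, Obp3 fell by 5.69 ± 0.61 relative to cirrhosis (adjusted p = 0.000167), and its difference from control of 1.24 ± 0.61 was not called (adjusted p = 0.166 in limma).

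The other Obp3 probe set gave 4.19, 7.37 and 8.60 in control, 72.5, 88.8 and 30.6 in hepatitis, 717, 516 and 762 in cirrhosis, and 10.6, 94.8 and 16.7 in HCC. It ordered the 4 groups in the same way as the first. Its difference was 4.89 ± 0.49 in cirrhosis against control (adjusted p = 0.00216) and 1.74 ± 0.49 in hepatitis against control, where it was not called (adjusted p = 0.103 in limma).

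Mup5 had 15.1, 13.0 and 13.9 in control, 102, 165 and 77.0 in hepatitis, 367, 297 and 379 in cirrhosis, and 32.0, 82.1 and 35.0 in HCC. Here too all 9 DEN arrays exceeded the 3 controls, and the cirrhosis arrays exceeded all the others. Mup5 rose by 2.06 ± 0.29 in hepatitis (adjusted p = 0.00687) and by 3.59 ± 0.29 in cirrhosis (adjusted p = 0.000885), each against control. It also rose in HCC, by 1.05 ± 0.29 against control (adjusted p = 0.0218 in limma), and this was lost when any 1 of the 3 control arrays was left out (0.0527 to 0.0651), with log2(value + 64) (0.52, adjusted p = 0.0837) and with only HCC and control in the fit (adjusted p = 0.0636). From cirrhosis to HCC it fell by 2.54 ± 0.29 (adjusted p = 0.000219). Cirrhosis exceeded hepatitis by 1.53 ± 0.29, which missed the threshold (adjusted p = 0.0543 in limma).

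The 2 other Mup5 probe sets were dim, at 3.52 to 25.3 and 3.69 to 11.4 over the 12 arrays. Even so both were higher in all 3 cirrhosis arrays than in any other array, with rises against control of 0.82 ± 0.08 and 0.41 ± 0.04 (adjusted p = 0.00187 and 0.0018 in limma). Neither was called in hepatitis (0.19 ± 0.08 and 0.03 ± 0.04) or HCC (0.06 ± 0.08 and -0.02 ± 0.04). Of the 5 lipocalin probe sets, 3 carry the suffix x, which the platform uses where probes also match other transcripts, and 1 carries the suffix a, for several transcripts of a gene. Signal from Obp3, Mup5 and further alpha-2u-globulin copies can therefore not be told apart, and the levels of single copies are uncertain.

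**Figure D2:**
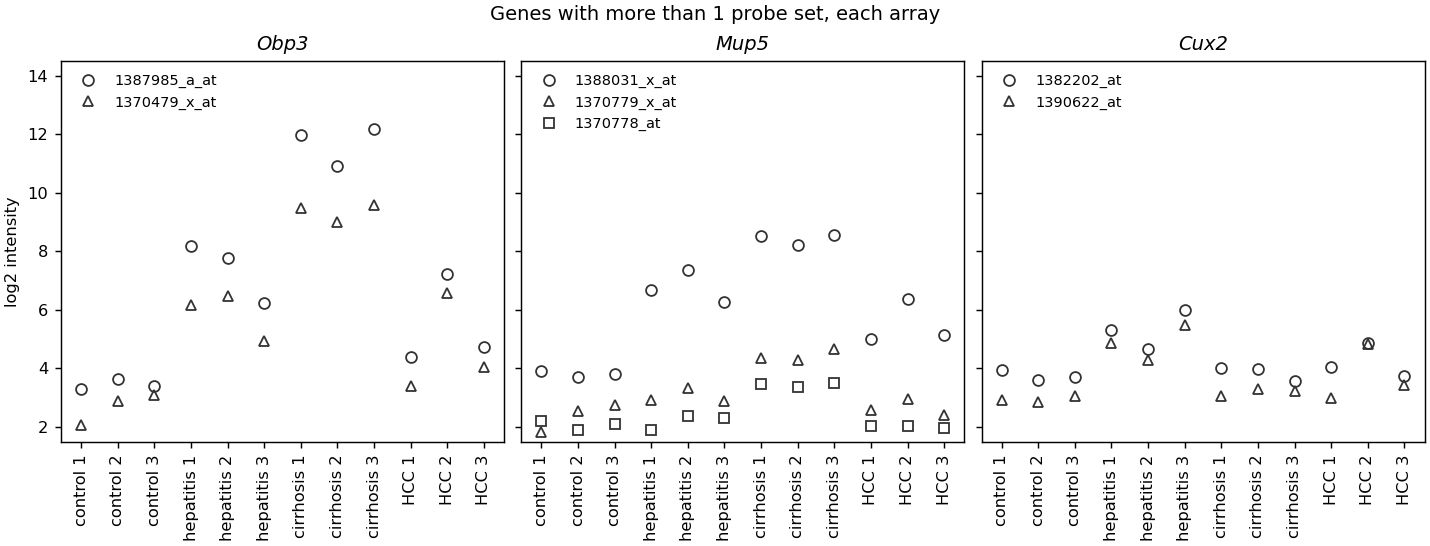
Log2 intensity on each of the 12 arrays for the 3 genes with more than 1 probe set, with a symbol for each probe set. In Obp3 and Mup5 the cirrhosis arrays are the highest in every probe set, and in Cux2 the hepatitis arrays exceed the control and cirrhosis arrays in both.

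Sult1e1, the oestrogen sulphotransferase, which in rat liver is higher in males, was brighter in every other group than in HCC. It had 1419, 2787 and 2608 in control, 4223, 4617 and 3002 in hepatitis, 5302, 4713 and 5021 in cirrhosis, and 153, 816 and 179 in HCC. The control, hepatitis and cirrhosis arrays did not overlap and were ordered by stage, but the differences against control of 0.83 ± 0.53 in hepatitis and 1.19 ± 0.53 in cirrhosis were not called (adjusted p = 0.538 and 0.3 in limma). The cirrhosis difference was called when the 3 HCC arrays, which have the widest spread, were left out of the fit (adjusted p = 0.0278), a setting chosen after the data were seen. In HCC, Sult1e1 fell by 2.86 ± 0.53 against control (adjusted p = 0.00324) and by 4.06 ± 0.53 against cirrhosis (adjusted p = 0.000452 in limma).

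Cyp2c11, the classic male-specific P450 of rat liver, hydroxylates testosterone. Its intensities were 1861, 3551 and 2953 in control, 883, 1475 and 313 in hepatitis, 4511, 3907 and 4795 in cirrhosis, and 115, 536 and 217 in HCC. All hepatitis arrays lay below, and all cirrhosis arrays above, the 3 controls. The means were 890.4 ± 581 in hepatitis and 2788 ± 857 in control, a difference of -1.83 ± 0.60 that was not called (adjusted p = 0.157 in limma). The cirrhosis difference of 0.70 ± 0.60 was not called either (adjusted p = 0.676), nor was that between cirrhosis and hepatitis at 2.53 ± 0.60 (adjusted p = 0.113, or 0.0392 without the HCC arrays, in limma). In HCC, Cyp2c11 fell by 3.40 ± 0.60 against control (adjusted p = 0.00248) and by 4.10 ± 0.60 against cirrhosis (adjusted p = 0.000808 in limma).

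Cyp2c13 and Cyp3a18, further male-biased P450 enzymes, were lowest in HCC. Cyp2c13 had 5179, 6198 and 6648 in control, 3200.03, 6407 and 4934 in hepatitis, 6003, 5725 and 5948 in cirrhosis, and 872, 1397 and 737 in HCC. The HCC arrays were separate from all the others, while the other 3 groups overlapped. Against control its differences were -0.36 ± 0.27 in hepatitis and -0.02 ± 0.27 in cirrhosis, neither of them called (adjusted p = 0.625 and 0.992 in limma). In HCC it fell by 2.61 ± 0.27 against control (adjusted p = 0.000179 in limma). Its probe set carries the suffix s, used where probes match several transcripts, so other Cyp2c transcripts may contribute.

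Cyp3a18 had 2769.75, 2833 and 2869 in control, 1692, 2706 and 2379 in hepatitis, 3173, 2966 and 2896 in cirrhosis, and 180, 642 and 183 in HCC. Its 3 control arrays agreed within 50.2 (SD), and the hepatitis arrays lay below and the cirrhosis arrays above them, by -0.35 ± 0.40 and 0.09 ± 0.40, which were not called (adjusted p = 0.801 and 0.966 in limma). In HCC it fell by 3.27 ± 0.40 against control and by 3.36 ± 0.40 against cirrhosis (adjusted p = 0.000396 and 0.000264 in limma).

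Cyp2c7, a P450 that metabolises retinoids and is higher in female rats, showed a step at the hepatitis stage. It had 168, 1658 and 1032 in control, 7111, 7564 and 7970.17 in hepatitis, 6726, 6420 and 6049 in cirrhosis, and 236, 899 and 101 in HCC. All hepatitis and cirrhosis arrays exceeded every control and HCC array, and the controls ranged widely. The mean was 7548 ± 430 in hepatitis and 6398 ± 339 in cirrhosis, against 953 ± 748 in control. These differences of 3.46 ± 0.84 and 3.22 ± 0.84 missed the threshold (adjusted p = 0.0632 and 0.0715 in limma). Without the HCC arrays in the fit both passed it (adjusted p = 0.021 and 0.0264), and without HCC replicate 2 or 3 alone the values were 0.0263 to 0.0462. HCC differed from control by -1.20 ± 0.84 (adjusted p = 0.334 in limma), and the arrays overlapped. From cirrhosis to HCC, Cyp2c7 fell by 4.42 ± 0.84 (adjusted p = 0.00329 in limma).

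The promoter windows of Cyp2c7 and Cyp2c13 are shown because these are the other 2 members with an ATCAAT, here in capitals on either strand (ATTGAT in Cyp2c13). They lie on chromosome 1 of GRCr8, Cyp2c7 at chr1:247966144-247966443 on the plus strand and Cyp2c13 at chr1:248787139-248787438 on the minus strand.
Cyp2c7: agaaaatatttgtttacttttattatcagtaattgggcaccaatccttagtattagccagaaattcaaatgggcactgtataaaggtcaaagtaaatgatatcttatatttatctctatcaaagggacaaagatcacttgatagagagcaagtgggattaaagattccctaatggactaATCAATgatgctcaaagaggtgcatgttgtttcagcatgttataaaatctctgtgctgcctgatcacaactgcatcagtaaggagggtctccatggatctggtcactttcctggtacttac
Cyp2c13: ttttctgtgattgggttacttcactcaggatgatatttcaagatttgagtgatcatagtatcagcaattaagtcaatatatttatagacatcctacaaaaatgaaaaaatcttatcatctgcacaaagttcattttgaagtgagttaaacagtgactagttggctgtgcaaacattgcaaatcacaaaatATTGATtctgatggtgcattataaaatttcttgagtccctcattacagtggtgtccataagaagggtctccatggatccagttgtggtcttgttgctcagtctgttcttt
The match begins 71 bases before the start of Cyp2c7 and 60 before that of Cyp2c13. The windows were identical at 168 of 277 aligned positions (60.6%), and the expression of these genes differed, with Cyp2c7 higher on all hepatitis arrays than in control and Cyp2c13 overlapping between those groups.

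**Figure D3:**
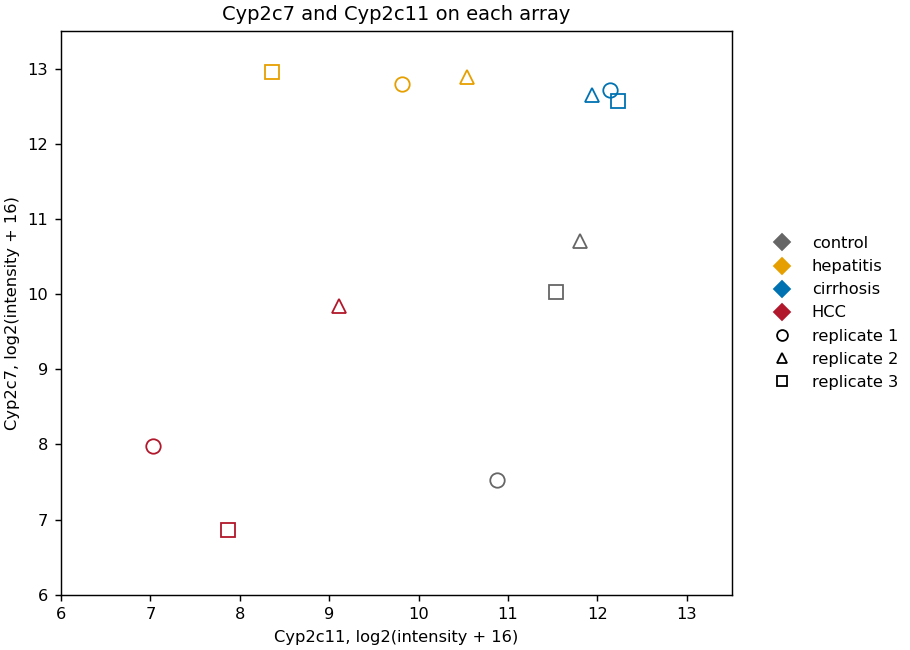
Log2(intensity + 16) of Cyp2c7 (vertical axis) and Cyp2c11 (horizontal axis) on each of the 12 arrays, with colour for the group and shape for the replicate. Hepatitis arrays combine the highest Cyp2c7 values with low Cyp2c11, cirrhosis arrays are high in both, and HCC arrays are low in both.

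Cyp3a9, a P450 of the steroid-metabolising Cyp3a family that is higher in female rats, had 17.2, 15.9 and 17.2 in control, 202, 160 and 371 in hepatitis, 489, 365 and 449 in cirrhosis, and 19.7, 97.3 and 24.2 in HCC. The control arrays lay below all 9 DEN arrays, and 1 hepatitis array reached into the cirrhosis range. Cyp3a9 rose by 2.91 ± 0.41 in hepatitis and by 3.77 ± 0.41 in cirrhosis (adjusted p = 0.00736 and 0.00383 in limma), each against control. It fell by 3.03 ± 0.41 from cirrhosis to HCC (adjusted p = 0.000572), and HCC differed from control by 0.74 ± 0.41, which was not called (adjusted p = 0.221 in limma).

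Cux2, a homeodomain repressor that silences male-biased genes in female liver, was dim throughout and higher in hepatitis. It had 15.6, 12.1 and 13.0 in control, 39.7, 25.3 and 64.3 in hepatitis, 16.2, 15.7 and 11.8 in cirrhosis, and 16.7, 29.4 and 13.4 in HCC. The other probe set had 7.68, 7.30 and 8.39 in control, 29.5, 19.7 and 44.9 in hepatitis, 8.26, 9.83 and 9.33 in cirrhosis, and 7.91, 28.7 and 10.9 in HCC. In both the hepatitis arrays exceeded every control and cirrhosis array, and HCC replicate 2 lay within the hepatitis range. The differences between hepatitis and control, 0.95 ± 0.23 and 0.96 ± 0.23, missed the threshold (adjusted p = 0.0591 and 0.0626 in limma). With 1 probe set per gene in the table, the first passed it (adjusted p = 0.04745 in limma). Hepatitis replicate 3 had the highest Cux2 and the lowest Cyp2c11 of the 3 hepatitis arrays. Across the 12 arrays, which share their groups, Pearson's r of the log2 values of Cux2 with the male-biased members was -0.43 for Cyp2c11, -0.03 for Obp3, -0.01 for Cyp2c13, 0.05 for Cyp3a18, 0.11 for Mup5 and 0.17 for Sult1e1. The low signal of Cux2 and the shared groups limit these values, and a relation of Cux2 to these genes was not tested.

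Stac3 encodes an adaptor protein known for excitation-contraction coupling in skeletal muscle. It had 24.9, 173 and 63.8 in control, 38.5, 49.6 and 24.4 in hepatitis, 383, 235 and 282 in cirrhosis, and 14.0, 43.2 and 30.1 in HCC. Cirrhosis lay above all other arrays, and control, hepatitis and HCC overlapped. The highest control was replicate 2, where the mean log2 level of 11 skeletal muscle markers was 7.33. That mean was 4.70 to 4.77 in cirrhosis, while control replicates 1 and 3 had 4.73 and 4.87. The part of that muscle signal in the Stac3 level of control replicate 2 was not tested. The cirrhosis arrays had high Stac3 without raised muscle markers. The summed intensity of those markers was 115 to 129 in cirrhosis, against 121 to 2984 in control, and muscle actin (Acta1) stood at 8.24 to 14.0 in cirrhosis. Cirrhosis exceeded control by 1.87 ± 0.49, which was not called (adjusted p = 0.0722), and by 2.44 with an adjusted p = 0.0301 when control replicate 2 was left out (limma). The difference from hepatitis was 2.56 ± 0.49 (adjusted p = 0.0549 in limma). HCC differed from control by -0.97 ± 0.49 (adjusted p = 0.171, or 0.0319 without control replicate 1, in limma). Against cirrhosis, HCC fell by 2.84 ± 0.49 (adjusted p = 0.00191 in limma).

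**Figure D4:**
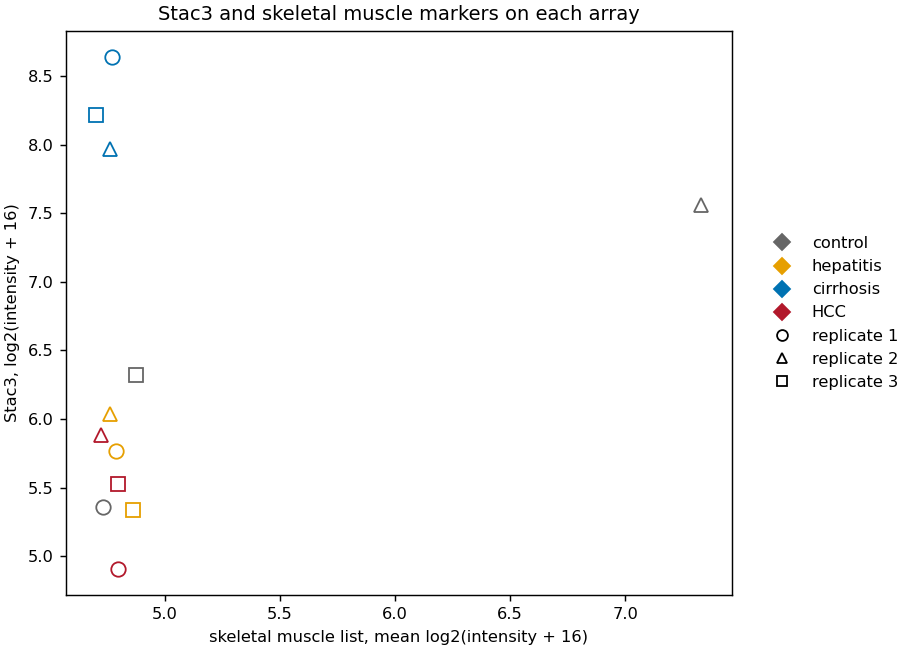
Log2(intensity + 16) of Stac3 (vertical axis) against the mean of the same measure over 11 skeletal muscle markers (horizontal axis) on each array, with colour for the group and shape for the replicate. Control replicate 2 stands alone at 7.33 on the horizontal axis, and the 3 cirrhosis arrays have the highest Stac3 at 4.70 to 4.77.

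By comparison, hepatitis had 3 of the 14 probe sets called higher relative to control (1.42% of all probe sets) and 0 called lower (1.53%), where 2.95% of all were called in limma. These were Cyp3a9, Mup5 and Obp3, and at an unadjusted p under 0.05 the counts were 8 higher (7.33% of all) and 1 lower (8.45%). In cirrhosis against control 6 were called higher (1.59% of all) and 0 lower (2.04%), with 3.62% called over all probe sets. All 6 belonged to Obp3, Mup5 and Cyp3a9, and 9 were higher (7.34% of all) and 0 lower (9.06%) at an unadjusted p under 0.05 in limma. The median difference of the 14 was 0.89 in hepatitis and 1.01 in cirrhosis, against -0.01 and 0.00 over all probe sets. In HCC against control 1 was called higher (15.7% of all) and 4 lower (14.1%), with 29.8% called over all, and the median was 0.02 over the 14 probe sets and -1.08 over the 10 genes, since Mup5 has 3 probe sets and Obp3 has 2. These 3 comparisons share their control arrays.

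Arrays of hepatitis and control did not overlap in 9 probe sets that were higher (12.8% of all) and 2 that were lower (14.7%), where 27.5% of all did not overlap. In cirrhosis and control these counts were 11 higher (16.3% of all) and 0 lower (17.9%), of 34.2% over all. In HCC and control they were 4 higher (20.9% of all) and 4 lower (19.2%), of 40.1% over all.

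From hepatitis to cirrhosis 4 probe sets were called higher (0.29% of all) and 0 lower (0.361%), where 0.651% of all were called in limma. They were both probe sets of Obp3 and the 2 dim ones of Mup5, and at an unadjusted p under 0.05 the counts were 7 higher (5.4% of all) and 2 lower (5.08%). Arrays did not overlap in 9 that were higher (12.2% of all) and 3 that were lower (11.3%), of 23.5% over all. In HCC against cirrhosis 12 of 14 were called lower (14.8% of all) and 0 higher (17.5%), where 32.2% of all were called. The same 12 of 14 did not overlap and were lower (20.8% of all) and 0 were higher (22.7%), of 43.5% over all. The median difference was -2.93, against 0.00 over all probe sets. The exceptions were the 2 probe sets of Cux2, at 0.21 ± 0.23 and 0.29 ± 0.23 (adjusted p = 0.536 and 0.394 in limma). In the moderated F test over the stages all 14 were called, as were 33.2% of all probe sets. HCC replicate 2 had the highest value of the HCC arrays in 13 of the 14 probe sets, against 35% of all probe sets. Leaving it out, which keeps the 2 HCC arrays with the lowest hepatocyte markers, gave counts of 5 and 12 called. On HCC replicate 2 itself Sult1e1, Cyp2c11, Cyp2c13 and Cyp3a18 were below every control array, at 816, 536, 1397 and 642. Cyp2c7, at 899, lay within the control range. The mean of the hepatocyte markers on that array was 13.14, but single markers went both ways. Alb, Ttr, Fgb, Ambp, Apoc3 and Ahsg were below every control array, and Apoa1 and Serpina1 were above. Apoc3 had 8994 against a control mean of 10601, and Apoa1 had 9219 against 5603. The Gapdh 3' excess on that array was 2.43. Markers of other cell types also moved in HCC against control. All 3 measured sinusoidal endothelial markers and 4 of 7 macrophage markers were lower (14.1% of all probe sets), and 6 of 7 proliferation markers were higher (15.7%). Their mean log2 levels were 6.64 to 8.07 in HCC and 9.39 to 9.64 in control for the endothelium, 7.09 to 7.42 in HCC and 8.40 to 9.42 in control for macrophages, and 6.76 to 8.24 in HCC and 5.51 to 6.21 in control for proliferation. The cholangiocyte mean was 9.20, 6.05 and 7.00 on HCC replicates 1, 2 and 3, against 5.63 to 5.73 in control. All 4 erythroid and blood genes were called lower against control both in cirrhosis (2.04% of all probe sets) and in HCC (14.1%). Their mean was 6.33 to 6.72 in cirrhosis, at most 6.23 in HCC and 7.83 to 8.45 in control. The part of cell makeup and RNA quality in the members' differences was not tested.

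**Figure D5:**
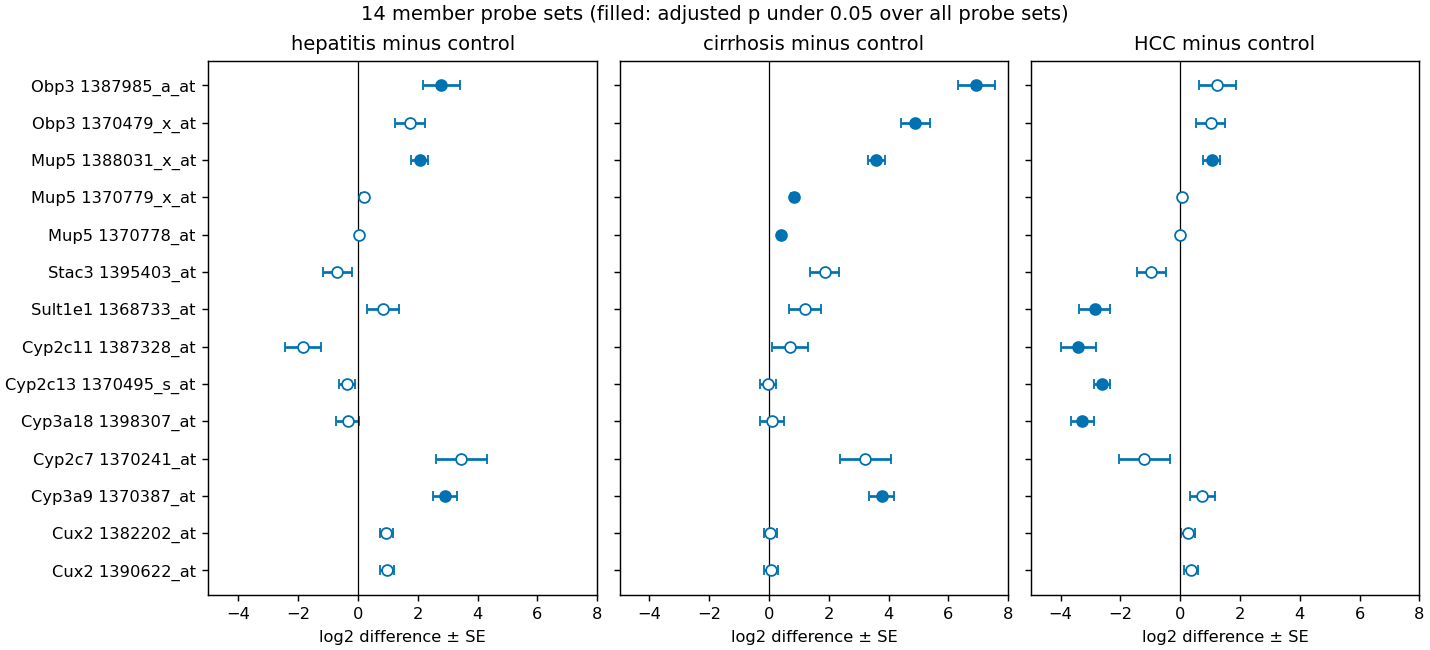
Log2 difference ± SE of the 14 probe sets in hepatitis, cirrhosis and HCC, each minus control, with filled symbols where the adjusted p is under 0.05 over all probe sets. In hepatitis 1 probe set each of Obp3, Mup5 and Cyp3a9 is filled, in cirrhosis all 6 probe sets of these genes are, and in HCC those of Sult1e1, Cyp2c11, Cyp2c13 and Cyp3a18 lie left of 0 and 1 of Mup5 to its right.

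The members were also counted by known sex bias, as 6 male-biased genes (Obp3, Mup5, Sult1e1, Cyp2c11, Cyp2c13 and Cyp3a18) and 3 female-biased ones (Cyp2c7, Cyp3a9 and Cux2). In cirrhosis against control 2 of the 6 and 1 of the 3 were higher (1.59% of all probe sets) and none lower (2.04%), with medians of 0.95 and 3.22. The 2 male-biased ones were Obp3 and Mup5, whose signals cannot be told apart. In HCC against control 1 of the 6 was higher (15.7% of all probe sets) and 4 were lower (14.1%), with a median of -2.74. Of the 3, 0 were called in limma in either direction and their median was 0.25. None of these 3 had an unadjusted p under 0.05 in that comparison, where 39.9% of all probe sets had one in limma. Cyp3a9 and Cux2 were already dim in control, at 16.8 ± 0.74 and 13.6 ± 1.83, so that a fall below control could hardly be measured. In HCC against cirrhosis 6 of the 6 and 2 of the 3 were lower, with medians of -3.71 and -3.03, where 14.8% of all probe sets were called lower. Whether the male-biased and female-biased members differed was not tested.

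Other genes of the same regulation were examined for comparison. Over all probe sets, hepatitis had 1.42% called higher and 1.53% lower, cirrhosis 1.59% and 2.04%, and HCC 15.7% and 14.1%, each against control. Of 7 measured male-biased liver genes that are not members, 1 was higher in hepatitis, 0 were called in cirrhosis and 6 were lower in HCC, each against control. The short-chain dehydrogenase Dhrs7 had the hepatitis call, with 495 ± 105 in hepatitis and 267 ± 23.3 in control (0.83, adjusted p = 0.0294 in limma). In HCC the male-biased P450 genes Cyp3a2 and Cyp2c22 had log2 differences of -2.58 and -2.48. Those of the steroid dehydrogenase gene Hsd3b5 and of Hsd11b1, which activates glucocorticoids, were -2.13 and -2.10. In cirrhosis Dhrs7 had the smallest adjusted p of the list (0.52, adjusted p = 0.135 in limma), and 2 of the 7 had an unadjusted p under 0.05 (16.4% of all probe sets). Of 10 female-biased genes 0 were called in hepatitis or cirrhosis, and 2 were lower and 1 higher in HCC. Cyp2a1 and the sulphotransferase gene Sult2a6 had differences of -3.23 and -3.12, and Tox, a nuclear factor, rose by 1.24. Trim24, a transcriptional cofactor, differed by 0.83 in hepatitis (adjusted p = 0.158) and Onecut1, a liver transcription factor, by 1.39 in cirrhosis (adjusted p = 0.256 in limma). Each was the 1 gene of the 10 with an unadjusted p under 0.05, where 15.8% of all probe sets had one in hepatitis and 16.4% in cirrhosis. Of the 6 measured other Cyp2c and Cyp3a genes 0 were called in hepatitis or cirrhosis and 5 were lower in HCC, led by Cyp3a23-3a1 at -2.92. Cyp3a2, Cyp2c22 and Cyp2c12 of these 6 were also counted in the lists above, so the lists are not separate. In limma 0 of the 6 had an unadjusted p under 0.05 in hepatitis or in cirrhosis. Their smallest adjusted p was that of Cyp3a2 in hepatitis (-0.62, adjusted p = 0.449) and of Cyp3a23-3a1 in cirrhosis (0.43, adjusted p = 0.558).

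Of 6 other lipocalins measured, 0 were called in hepatitis or cirrhosis in limma, 0 had an unadjusted p under 0.05 there, and 3 were lower in HCC (14.1% of all probe sets), each against control. Orm1, an acute phase protein, fell by 1.70 in HCC, with the retinol carrier Rbp4 at -1.14 and Ambp, the precursor of alpha-1-microglobulin, at -1.07. The list also held Rup2, a urinary protein that is not a lipocalin and was left out of these counts after its values were seen. Rup2 had 10852 ± 350 in cirrhosis and 8036 ± 1181 in control (0.44, adjusted p = 0.042 in limma), and it differed by 0.29 in hepatitis (adjusted p = 0.171).

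In growth hormone signalling itself 1 of 12 genes was higher in hepatitis (1.42% of all probe sets), 0 were called in cirrhosis (3.62%) and 4 were lower in HCC (14.1%), against control. The hepatitis call was the feedback inhibitor Socs3, at 31.2 ± 0.55 in hepatitis and 24.3 ± 1.04 in control. In cirrhosis 3 of the 12 had an unadjusted p under 0.05 in limma (16.4% of all probe sets), with Stat5b nearest to a call (-0.39, adjusted p = 0.0699). The receptor Ghr had 246 ± 174 in HCC and 1191 ± 10.5 in control, a fall of 2.43, and Igf1, the hormone induced by growth hormone, fell by 1.97. Igfals, which carries Igf1 in blood, fell by 2.91 and Stat5b by 0.43. Among 11 measured liver transcription factors and nuclear receptors 3 were lower in hepatitis (1.53% of all probe sets), 0 were called in cirrhosis (3.62%) and 8 were lower in HCC (14.1%). In cirrhosis 6 of the 11 had an unadjusted p under 0.05 (16.4% of all probe sets), and Cebpb was nearest to a call (-0.65, adjusted p = 0.066 in limma). Those lower in hepatitis were Cebpa at -1.65, Cebpb at -0.74 and Nr5a2 at -0.43. In HCC, Nr1i3, the receptor known as CAR, fell by 2.05.

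Likeness of pattern was measured by Pearson's r of log2(value + 16) over the 12 arrays, among 8393 named genes with a mean of at least 6 on that scale. These values describe arrays that share their groups and carry no test. Obp3 and Mup5 were each other's closest gene (r = 0.97). Their probe sets may read the same transcripts, so this value cannot show that 2 genes vary together. Mup5 was also the closest gene to Cyp3a9 (r = 0.93). Cyp3a18 was closest to Ang and Rnase4, 2 secreted ribonucleases (r = 0.996 for each), and Cyp2c13 to Ehhadh, a peroxisomal enzyme (r = 0.99). Sult1e1 was closest to the mitochondrial pyruvate carrier gene Mpc1 (r = 0.99), Cyp2c11 to Mpv17l (r = 0.97), Cyp2c7 to Vamp7 (r = 0.94), Stac3 to Ccny (r = 0.94) and Cux2 to Rrn3 (r = 0.95).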

How the data were processed

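The authors' deposited table holds 1 linear intensity per probe set and array, and not log values. MAS5 and RMA are both listed in the submitters' processing notes, without role, order or version, so which of them made these values is not known here. Arrays had medians of 28.7 to 30.9, with 33.9% to 35.8% of their intensities below 16. No detection calls were used, so dim values have no stated background. Precision is limited by the number of arrays.

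Of 31099 probe sets, 57 array controls were left out and 31042 were tested. Names came from the platform's annotation, with symbols updated through RefSeq genes of GRCr8: 20826 probe sets had 1 gene, 436 several and 9780 none. Values were analysed as log2(value + 16), which understates changes of dim probe sets. limma 3.58.1 (lmFit, eBayes) in R 4.3.3 was fitted to all 12 arrays with group as the factor, and p-values were adjusted over the whole table. Tests were 2-sided. The script was tested on simulated data. Promoter sequences are RefSeq's. Other tables and figures used Python 3.11.15.

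The members and lists were chosen with earlier results of these data known. The named genes were all member probe sets, up to 4 called genes of each other list and comparison with control in order of absolute difference (or the smallest adjusted p where none was called), and the closest genes by correlation. Alternatives were other pseudocounts, a filter on dim probe sets, quantile normalization, 1 probe set per gene, a trended robust variance, the groups compared alone, array weights, a replicate block and leaving out each array.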

Additional observations from a re-analysis of the deposited data

Results flagged for a closer look

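5 genes stood on opposite sides of control in cirrhosis and in HCC while the direct difference between HCC and cirrhosis was called by limma. This difference was -2.84 for Stac3 (1.87 in cirrhosis and -0.97 in HCC, each against control), -4.06 for Sult1e1 (1.19 and -2.86), -4.10 for Cyp2c11 (0.70 and -3.40), -3.36 for Cyp3a18 (0.09 and -3.27) and -4.42 for Cyp2c7 (3.22 and -1.20). None of the 5 cirrhosis differences from control was itself called in the fit of all 12 arrays. In HCC the differences from control of Stac3 and Cyp2c7 were not called either (adjusted p = 0.171 and 0.334 in limma), and their arrays overlapped those of control.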

How the results depend on the processing

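Of 21 calls of single member genes over the 5 comparisons, 18 held whichever array was left out and 18 held under all other settings. With the 3 probe sets called in hepatitis against control, the count was 7 with log2(value + 1), 6 without the dimmest 30% of probe sets, 5 with a trended robust variance, 8 with array weights and 7 without the 3 HCC arrays (chosen after seeing the data), and 2 to 7 when 1 array was left out (7 without HCC replicate 2). From hepatitis to cirrhosis the count of 4 became 9 with array weights, 8 without the 3 HCC arrays and 2 to 7 when 1 array was left out, with 2 without hepatitis replicate 3, cirrhosis replicate 1 or cirrhosis replicate 3 and 7 without HCC replicate 2. In cirrhosis against control the count of 6 was 3 in a table of 1 probe set per gene, which holds 10 member probe sets in place of 14. The settings that leave out HCC arrays differ by construction in the spread the fit uses, and the cause of the other changes was not tested. Cyp2c13 in cirrhosis against control, at -0.02, turned to 0.0056 and 0.056 without control replicate 2 and 3, and ranged from -0.12 to 0.056 over the arrays left out. Same-numbered arrays of different groups had correlations of -0.22 to 0.34 in their deviations, over 0.1 in 2 of 18 pairs. These values cannot settle whether the numbers pair the samples, which the labels leave unstated. With the replicate block the counts of member probe sets were 2, 6, 5, 2 and 12 for the comparisons of hepatitis, of cirrhosis and of HCC with control, then of cirrhosis with hepatitis and of HCC with cirrhosis, and 12 of 14 in the F test. Over all probe sets the count in hepatitis against control of 916 ranged from 297 to 1652 when 1 array was left out, and that in cirrhosis against control of 1125 from 194 to 1884. The count in cirrhosis against hepatitis of 202 ranged from 63 to 439 and was 1181 with array weights, 1094 without the 3 HCC arrays, 466 with only those groups in the fit and 133 with the replicate block. The counts of hepatitis and of cirrhosis against control were 3468 and 4946 with array weights and 3113 and 3314 without the 3 HCC arrays, and that in cirrhosis against control was 717 with the replicate block and 4949 with only those groups in the fit. Without detection calls, the dim control levels of Obp3, Mup5, Cyp3a9 and Cux2 have no lower limit of measurement.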

Other observations

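Values of further genes of the same regulation are given here, and the 4 named were chosen after their values were seen. The P450 gene Cyp2c12 had 241 and 272 on HCC replicates 1 and 3, while HCC replicate 2, at 4810.23, lay within the control range of 4204 to 5159. The prolactin receptor gene Prlr, which is higher in female rat liver, had 364, 278 and 597 in hepatitis, against 186, 200 and 98.3 in control, without overlap. The difference of 1.26 was not called (adjusted p = 0.372 in limma), and 12.8% of all probe sets were higher without overlap in that comparison. Bcl6, a repressor that is higher in male liver, had 359 on control replicate 2 and 74.0 and 90.1 on the other controls. Control replicate 2 also had raised skeletal muscle markers (mean log2 level 7.33, against 4.73 and 4.87), and the part of that signal in Bcl6 was not tested. The growth hormone feedback gene Socs2 spanned 19.6 to 34.7 in control, 16.04 to 19.7 in hepatitis, 40.8 to 48.3 in cirrhosis and 7.82 to 22.0 in HCC. Its difference of 0.56 between cirrhosis and control was not called (adjusted p = 0.129 in limma). From cirrhosis to HCC it was called lower (-1.05, adjusted p = 0.00167 in limma), as were 14.8% of all probe sets.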
